A study of Mus musculus with 16 samples.

Results

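The genes described here are 10 feedback regulators and targets of the transcription factor NF-kB, followed through single-cell transcriptomes of mouse colon tumour organoids. They are the IkB genes Nfkbia and Nfkbiz, the ubiquitin-editing and ubiquitin ligase genes Tnfaip3, Tnip1 and Birc3, the subunit genes Nfkb1, Nfkb2 and Relb, and the effector targets Icam1 and Tnfaip2. They were taken by symbol from the 31053 genes of the deposited matrices, and each symbol was found once. The organoids, epithelial cultures grown in 3 dimensions, came from tumours induced by azoxymethane, a colon carcinogen, together with dextran sodium sulfate, which injures the colon lining (AOM/DSS), and were at passage 14. The control group is labelled minus TAM, with genotype KMT9wt/wt. The group called knockout here is labelled plus TAM, with genotype KMT9ko/ko, KMT9 being a histone methyltransferase whose catalytic subunit KMT9alpha is encoded by N6amt1. The labels give no Cre line or promoter, and no number of animals or cultures. As TAM was given to the knockout group alone, TAM and the loss of KMT9 cannot be told apart. A group has 8 records but 1 matrix, and the design text speaks of 2 samples, so each group is treated here as 1 library and no difference between the groups was tested. Every interval is an exact 95% interval that covers counting error only.

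NF-kB dimers wait in the cytoplasm bound to IkB proteins until signals such as TNF lead to the breakdown of IkB. The freed dimers then switch on genes that include their own inhibitors, Nfkbia and Tnfaip3 among them, which ends the response after a delay. A slower branch runs through the processing of the Nfkb2 product p100 and the partner subunit Relb. In the gut epithelium the pathway is known for its part in defence, cell survival and colitis-associated tumours.

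The kept cells numbered 2629 in the control and 1481 in the knockout library, with 68605296 and 37358097 UMIs (unique molecular identifiers, 1 for each captured RNA molecule) and medians of 24603 and 24184 UMIs per cell. Levels are given as CPM, the UMIs of a gene among 1000000 UMIs of all genes. N6amt1 stood at 34.1 CPM (interval 32.7 to 35.5) in control and 6.13 CPM (5.36 to 6.98) in knockout cells, the direction of the labels. The deleted exons are not given in the sources used here, so whether these 3' tags lie in the deleted part cannot be said. The matrices share 498 barcodes, and 167 control cells (6.35%) and 324 knockout cells (21.9%) carried such a barcode, so the main results are also given without them. All 10 epithelial markers looked for were measured, that is, reached 10 CPM in at least 1 library. Of 18 immune markers only Cd68 and Cd14 did. The 18 together summed to 55.9 CPM in control and 68.6 CPM in knockout cells, and Cd3e, Cd4, Cd8a, Nkg7, Itgam and Tyrobp had no UMI. None of 8 fibroblast markers was measured (summed 2.22 and 3.35 CPM, with no UMI of Col1a2, Col3a1, Dcn, Lum or Thy1), and of 8 endothelial markers only Cdh5 was (summed 11.3 and 20.9 CPM, with no UMI of Kdr or Cldn5).

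Promoters are shown for 4 of the genes that co-varied over cells, as the 150 bases before the start site in RefSeq on GRCm38.p6, written 5' to 3' along the gene. Capitals mark matches to the kappa B consensus, the general motif bound by NF-kB dimers, searched on both strands with overlaps allowed.
Nfkbia, chr12:55492648-55492797, minus strand: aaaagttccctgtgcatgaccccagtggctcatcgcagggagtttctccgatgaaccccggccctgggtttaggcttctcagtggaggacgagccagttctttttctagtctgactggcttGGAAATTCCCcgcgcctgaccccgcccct
Tnfaip3, chr10:19015411-19015560, minus strand: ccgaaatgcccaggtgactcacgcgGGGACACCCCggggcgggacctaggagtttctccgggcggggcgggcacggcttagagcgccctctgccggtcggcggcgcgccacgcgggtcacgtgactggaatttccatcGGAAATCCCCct
Nfkb2, chr19:46304587-46304736, plus strand: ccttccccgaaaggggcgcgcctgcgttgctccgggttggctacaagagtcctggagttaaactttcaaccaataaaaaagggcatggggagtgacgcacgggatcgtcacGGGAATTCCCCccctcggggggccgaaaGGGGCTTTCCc
Tnip1, chr11:54962941-54963090, minus strand: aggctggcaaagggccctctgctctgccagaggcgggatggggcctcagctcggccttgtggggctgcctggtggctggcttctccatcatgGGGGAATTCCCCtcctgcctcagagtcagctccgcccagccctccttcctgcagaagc
RefSeq promoter entries, which run from 250 bases before to 50 bases after a start site, matched 7 of the 10 genes, with 10 entries in all. Nfkbiz, Relb and Nfkb1 had none. A kappa B match was found in 7 entries of 5 genes, namely Nfkbia, Tnfaip3, Nfkb2, Tnfaip2 and Tnip1, and in 8.46% of all 32851 promoters. In Nfkbia the match GGAAATTCCC begins 29 bases before the start site, in Tnfaip3 the nearer match GGAAATCCCC begins 12 bases before it, and in Tnip1 3 overlapping matches begin 56 to 58 bases before it. The other 2 entries of Nfkb2, not shown, overlap and hold GGGACTTTCC. The windows of Birc3 and Icam1 held no match. These matches describe letters in a window and not binding.

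All 10 genes had a higher level in the knockout than in the control library, where 43.6% of all 7912 measured genes did. Tnfaip3, Nfkbiz and Birc3 exceeded the control by 1.5-fold or more (3 of 10, against 8.06% of all measured genes), and 0 of 10 lay below it by as much (against 10.7%). This threshold sorts genes by size and is not a test. Birc3 (7.04 against 14.3 CPM) was measured only through the knockout library, where it is high, so its place in the count supports nothing by itself. The counting interval of the ratio lay above 1 for 9 of the 10, all but Tnip1, and for 34.3% of all measured genes. The median log2 ratio, knockout over control, was 0.53 over the 10 genes and -0.06 over all measured genes. Without cells of a shared barcode 4 of the 10 exceeded the control by 1.5-fold, Icam1 being the added one, the median was 0.52, and Tnip1 lay below the control. The median of all measured genes was then -0.10, and their share past 1.5-fold was not counted. In such sums a larger share of cells with the RNA and more RNA per cell cannot be told apart.

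**Figure D1:**
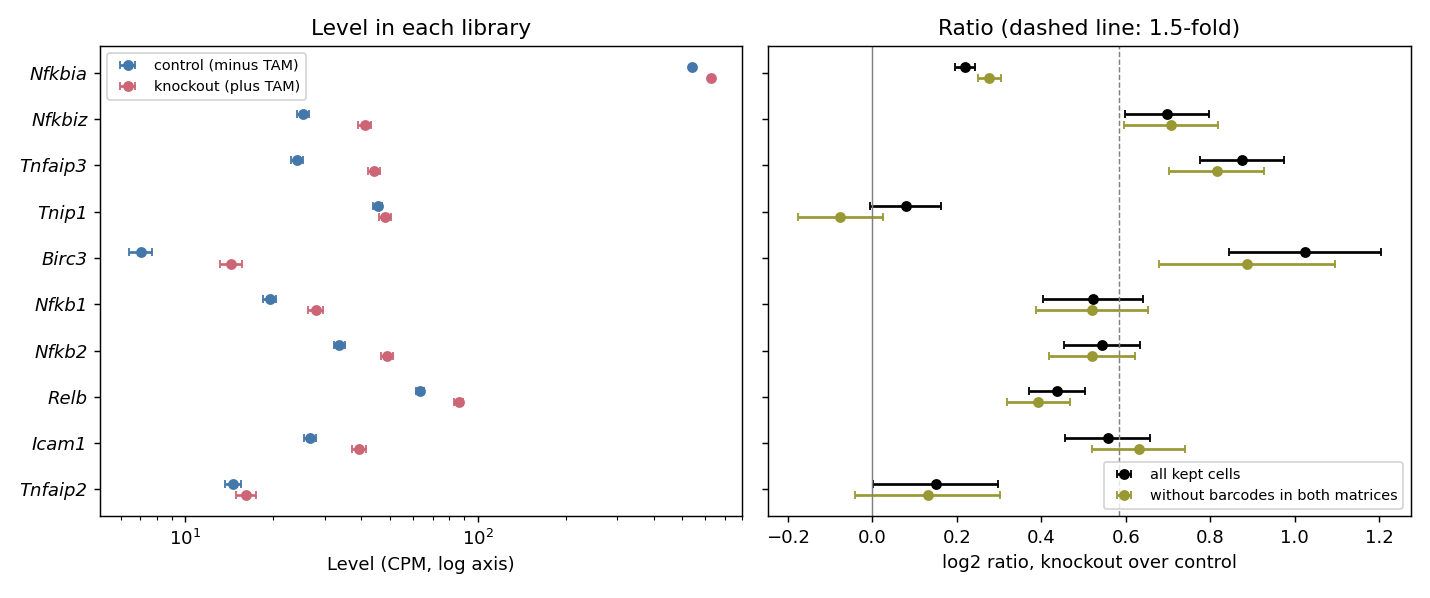
Level of each gene in the control (blue) and knockout (red) library in CPM on a log axis, and its log2 ratio, knockout over control, for all kept cells (black) and without barcodes found in both matrices (olive), with exact 95% counting intervals. Birc3, Tnfaip3 and Nfkbiz lie to the right of the dashed 1.5-fold line, while Tnip1 and Tnfaip2 lie near 0.

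Among the IkB genes, Nfkbia encodes IkB-alpha, the classical inhibitor that is made again within each response. It lies on chromosome 12 from 55489410 to 55492647 on the minus strand of mm10. Its level was 539.6 CPM (534.1 to 545.1) in control and 629 CPM (621 to 637) in knockout cells, a log2 ratio of 0.22 (0.20 to 0.24), and 0.28 without shared barcodes. The intervals do not overlap, yet the difference is small. Nfkbiz (chromosome 16, 55811375 to 55838899) encodes IkB-zeta, a nuclear IkB that helps to switch on secondary response genes. It stood at 25.3 CPM (24.1 to 26.5) against 41.0 CPM (39.0 to 43.1), a log2 ratio of 0.70 (0.60 to 0.80), and 0.71 without shared barcodes.

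Of the ubiquitin-linked regulators, Tnfaip3 (chromosome 10, 19000910 to 19015657) encodes A20, which edits ubiquitin chains and damps signalling from TNF receptors. Its level was 24.1 CPM (23.0 to 25.3) in control and 44.2 CPM (42.1 to 46.4) in knockout cells, from 1656 and 1653 UMIs, a log2 ratio of 0.87 (0.78 to 0.97). Without shared barcodes the ratio was 0.82. Birc3 (chromosome 9, 7848699 to 7873186) encodes cIAP2, a ubiquitin ligase of TNF receptor complexes that also protects from cell death. It had the lowest UMI counts of the 10 genes, 483 and 535, which gave 7.04 CPM (6.43 to 7.70) and 14.3 CPM (13.1 to 15.6). Its log2 ratio of 1.02 (0.84 to 1.205) was the highest of the 10, and 0.89 without shared barcodes. Tnip1 (chromosome 11, 54910785 to 54962917) encodes ABIN-1, a partner of A20. Unlike these, it stood at 45.4 CPM (43.9 to 47.1) and 48.0 CPM (45.8 to 50.3), a log2 ratio of 0.08 whose interval, -0.0051 to 0.16, includes 0. Without shared barcodes that ratio was -0.08 (-0.18 to 0.02), so the direction for Tnip1 depends on those cells.

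The 3 subunit genes had similar ratios, each below 1.5-fold. Nfkb1 (chromosome 3, 135584655 to 135691547), which encodes p105 and p50, stood at 19.4 CPM (18.4 to 20.5) against 27.9 CPM (26.2 to 29.6), a log2 ratio of 0.52 (0.40 to 0.64). Nfkb2 (chromosome 19, 46304320 to 46312385), which encodes p100 and p52, stood at 33.6 CPM (32.3 to 35.03) against 49.0 CPM (46.8 to 51.3), a log2 ratio of 0.54 (0.46 to 0.63). Relb (chromosome 7, 19606217 to 19629438), the usual partner of p52, stood at 63.6 CPM (61.7 to 65.5) against 86.1 CPM (83.1 to 89.1), a log2 ratio of 0.44 (0.37 to 0.50). Without shared barcodes these ratios were 0.52, 0.52 and 0.39. In each case the knockout library lay above the upper bound of the control library.

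Of the effector targets, Icam1 (chromosome 9, 21015985 to 21028817) encodes an adhesion molecule that leukocytes bind. It stood at 26.7 CPM (25.5 to 27.9) against 39.2 CPM (37.3 to 41.3), a log2 ratio of 0.56 (0.46 to 0.66), and 0.63 without shared barcodes. Tnfaip2 (chromosome 12, 111442469 to 111455018), named for its induction by TNF, stood at 14.5 CPM (13.6 to 15.4) against 16.1 CPM (14.9 to 17.5), a log2 ratio of 0.15 (0.0021 to 0.30), and 0.13 (-0.04 to 0.30) without shared barcodes. These Tnfaip2 intervals overlap between the libraries. Nfkb2, Icam1, Tnfaip2 and Tnip1 each overlap a gene annotated on the opposite strand, and Nfkb1 one on its own strand. Whether reads of these neighbours were counted with those of the named genes was not tested, and the strand rule used in counting is unknown here.

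Shares of cells with a UMI were higher in the knockout library for most of the 10 genes, Tnfaip3 and Birc3 among them, but not for Tnip1. How often this holds over all measured genes was not counted. After each cell was thinned to 5000 UMIs, which left out 142 control and 94 knockout cells, a Tnfaip3 UMI was found in 9.93% (8.78 to 11.2) of 2487 control and 16.4% (14.5 to 18.5) of 1387 knockout cells. Without thinning the shares were 33.9% and 46.4%. A Birc3 UMI was found in 3.34% (2.67 to 4.12) and 7.35% (6.04 to 8.86) of thinned cells, and in 15.2% and 24.8% of cells without thinning. Tnfaip2 hardly differed, at 6.11% (5.20 to 7.13) and 6.20% (4.99 to 7.60), against 21.3% and 20.3% without thinning. A Tnip1 UMI was found in 19.3% (17.8 to 20.9) of control and 18.5% (16.4 to 20.6) of knockout thinned cells. Without thinning these Tnip1 shares were 57.4% and 56.1%. No cell type known to lack these transcripts was present, so no background share stands beside these values. Most thinned cells held no UMI of a given gene other than Nfkbia, which was found in 80.0% (78.4 to 81.6) and 82.3% (80.2 to 84.3), and in 94.4% of either library without thinning. Without shared barcodes the thinned shares were 9.93% and 15.3% for Tnfaip3, 3.27% and 6.67% for Birc3, 6.06% and 6.10% for Tnfaip2, and 79.9% and 83.9% for Nfkbia.

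To see which cell states held the genes, cells of both libraries were clustered on variable genes from which the 10 genes and the pathway genes had been left out. Clusters are named by number and leading genes. Cluster 4 (Hmmr, Nusap1, Ccnb1) is G2 and M phase-like, with 18 of its 18 markers 2-fold or more above the other cells, and cluster 9 (Clca4a, Saa1, Tmigd1) is colonocyte-like, with 11 of 14 markers and a median of 8486 UMIs per cell. Cluster 8 was led by Inhba, S100a7a, Sprr1a, Lce1h and Clu, cluster 6 by Ccl2, Cxcl10, Spp1, Cebpd and Hspb1, cluster 0 by Cadps, Nppb and Plat, and cluster 1 by Pnliprp1, Igf1 and Prss56. Cluster 2 was led by Reg4, Tmed6 and Sectm1b, cluster 3 by Ung, Krt4 and Isx, and cluster 7 by Khdc1a, Ifit1bl1 and Ms4a10. Cluster 5 had a median of only 3738 UMIs per cell and was led by Lars2 and Hspa1b. The libraries filled the clusters unequally, so that a cluster may stand for a library and not a cell type. Cluster 2 had 660 control and 22 knockout cells, cluster 3 had 548 and 8, and cluster 7 had 322 and 26, while cluster 8 had 42 and 408 and cluster 0 had 258 and 439. Cluster 10, with 8 cells, is left out.

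Summed over the 10 genes, the level was highest in cluster 6, at 1103 CPM (1074 to 1133), and cluster 8, at 1084 CPM (1066 to 1102), whose intervals overlap. Cluster 0 followed at 953 CPM (939 to 968) and cluster 4 at 909.9 CPM (896 to 924). The lowest levels were those of the Pnliprp1-led cluster 1, at 624 CPM (605 to 645), and the colonocyte-like cluster 9, at 626 CPM (585 to 669). Ccl2 and Cxcl10, which lead cluster 6, are themselves NF-kB pathway genes, and they took no part in the clustering. The 10 leading genes of cluster 6 also hold 5 heat shock genes, Hspb1, Dnaja4, Hspa1b, Dnajb1 and Dnajb4, whose part in its level was not tested. Nfkbia gives most of this sum. With the 10 genes weighted equally, the mean log2 level relative to all cells was highest in cluster 8 (0.51), followed by cluster 6 (0.41), and lowest in cluster 1 (-0.78). Under other cluster settings and without shared barcodes, clusters led by Inhba and Sprr1a or by Asprv1 and Slpi took the top place, with 1075 to 1102 CPM. The summed level of 20 immediate early genes, a class that cell dissociation can induce, ranged over clusters from 5085 to 9424 CPM in control and from 5049 to 10636 CPM in knockout cells, cluster 6 standing at 9424 and 9931 CPM, and cluster 8 at 6932 and 7581 CPM. The immediate early maximum of 10636 CPM in knockout cells was that of cluster 1. The summed immune markers ranged from 32.9 to 108 CPM and from 24.8 to 132 CPM. For these markers cluster 8 stood at 108 and 90.6 CPM, and cluster 6 at 76.7 and 79.6 CPM. The part of either list in these results was not tested.

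**Figure D2:**
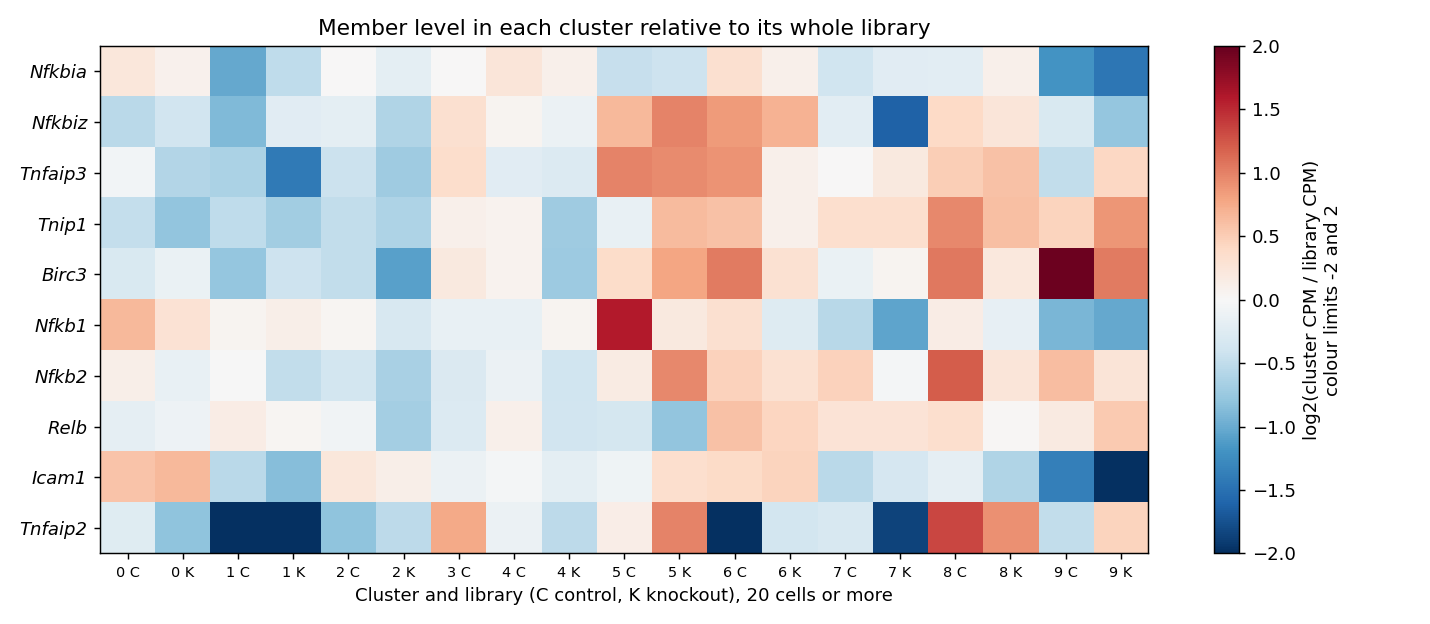
Log2 level of each gene in a cluster relative to the whole library of the same cells, for control (C) and knockout (K) cells of each cluster with 20 or more cells in that library, with colours limited to -2 and 2. Tnfaip2 is darkest blue in cluster 1, Icam1 is highest in cluster 0, and Tnip1 and Nfkb2 are high in the control cells of cluster 8.

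The genes did not peak in the same cluster. Tnfaip2 had the most uneven pattern. In control cells it stood at 36.8 CPM (27.6 to 48.1) in cluster 8 and 24.6 CPM (22.3 to 27.1) in the Krt4-bearing cluster 3, but at 12.3 CPM in cluster 0. In knockout cells it stood at 30.3 CPM (27.3 to 33.5) in cluster 8 and 9.26 CPM (7.53 to 11.3) in cluster 0. In cluster 1 it had 2 UMIs in 101 control cells and 0 in 189 knockout cells, at or below 3 counts in both. Icam1 was highest in cluster 0 of either library, at 39.7 CPM (35.2 to 44.7) in control and 61.6 CPM (57.0 to 66.5) in knockout cells, with cluster 6 next and overlapping intervals (34.9 and 53.4 CPM). In the colonocyte-like cluster 9 it stood at 10.3 and 8.26 CPM, from 3 and 9 UMIs.

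Tnfaip3 was highest in knockout cells of the few-UMI cluster 5, at 85.0 CPM (54.5 to 127) from 24 UMIs, and cluster 8, at 66.3 CPM (61.8 to 71.1), with overlapping intervals. Its lowest level there was 16.6 CPM (12.8 to 21.1) in cluster 1. In control cells clusters 5, 6 and 8 (47.8, 44.8 and 34.0 CPM) came first, each overlapping the next. Nfkbiz stood at 66.2 CPM (58.0 to 75.3) in knockout cells of cluster 6 and 48.4 CPM (44.6 to 52.5) in cluster 8, which do not overlap. Cluster 5 stood at 81.5 CPM (51.7 to 122), from 23 UMIs, with an interval that overlaps those of clusters 6 and 8. Nfkbia was high in many clusters. In knockout cells clusters 8, 6, 4 and 0 lay between 666 and 677 CPM, and in control cells clusters 6, 4 and 0 lay between 633 and 672 CPM. Nfkbia was lowest in clusters 9 (237 and 231 CPM) and 1 (264 and 442 CPM).

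Among control cells, Nfkb2 and Tnip1 were highest in cluster 8, at 77.8 CPM (64.0 to 93.6) and 88.9 CPM (74.2 to 106), with intervals that overlap those of the next clusters (cluster 9 at 51.4 CPM for Nfkb2 and cluster 6 at 68.3 CPM for Tnip1). Among knockout cells, Nfkb2 was highest in cluster 5, at 95.7 CPM (63.0 to 139) from 27 UMIs, overlapping cluster 6 at 60.5 CPM (52.7 to 69.2). Tnip1 was highest in knockout cells of cluster 9, at 88.1 CPM (71.4 to 108), which was 36.3 CPM without shared barcodes. Relb was highest in knockout cells of clusters 9 and 6, at 124 CPM (104 to 147) and 116 CPM (105 to 128), and in control cells of cluster 6, at 94.9 CPM (79.0 to 113). Birc3 was highest in cluster 9 of both libraries, at 27.4 CPM (11.8 to 54.1) from 8 UMIs and 29.4 CPM (20.1 to 41.5) from 32 UMIs. Cluster 9 depends on shared barcodes. Of its 52 knockout cells 22 carried one, and without them its Relb was 86.2 CPM and its Nfkbia 86.2 CPM. Its Birc3 was then 5.84 CPM in control cells, below clusters 8 (15.2 CPM) and 6 (10.5 CPM), and 18.2 CPM in knockout cells, below cluster 5 (25.2 CPM), so that the top place was lost in both libraries. Nfkb1 was highest in control cells of cluster 5, at 58.0 CPM (43.2 to 76.3), with no overlap with cluster 0 behind it at 30.6 CPM (26.6 to 34.9). In clusters 0 to 8, leaving out the shared barcodes left Nfkbia between 271 and 664 CPM in control and between 472 and 707 CPM in knockout cells.

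Within clusters, the libraries were compared in the 9 clusters that had 20 or more cells of each. Tnfaip3 was higher in knockout cells of 9 of 9 clusters, with an interval above 0 in 6 of them, and of 8 of 9 without shared barcodes. The log2 ratio was 0.96 (0.55 to 1.41) in cluster 8, 0.83 (0.55 to 1.11) in cluster 4 and 1.06 (0.50 to 1.58) in cluster 7, but 0.08 (-0.35 to 0.54) in cluster 6 and -0.43 there without shared barcodes. Nfkbiz was higher in 8 of 9 clusters, with an interval above 0 in 6, among them cluster 1 at 1.35 (0.77 to 1.97) and cluster 0 at 0.86 (0.55 to 1.17). Icam1 was higher in 8 of 9, with an interval above 0 in 4. Nfkbia was higher in 8 of 9, Nfkb1 in 7 and Relb in 6, with intervals above 0 in 5, 2 and 5. Without shared barcodes the counts of clusters with a higher level were 6 for Nfkbiz, 8 for Icam1, 7 each for Birc3, Nfkb2, Nfkbia and Relb, and 5 for Nfkb1. Birc3 and Nfkb2 were higher in 8 of 9 clusters each, but their intervals lay above 0 in only 3 and 2. In cluster 8 Nfkb2 was lower in knockout cells, with a log2 ratio of -0.43 (-0.72 to -0.12), and -0.55 without shared barcodes.

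Tnip1 went the other way in most clusters. It was lower in knockout cells of 6 of 9 clusters, with an interval below 0 in 3 and above 0 in 1. Its log2 ratio in cluster 4 was -0.70 (-0.99 to -0.43), from 47.6 CPM in control and 29.3 CPM in knockout cells. The intervals of clusters 6 (-0.78 to -0.03) and 8 (-0.55 to -0.0027) came close to 0. In the few-UMI cluster 5 the ratio was 0.86 (0.01 to 1.68). Without shared barcodes Tnip1 was higher in 3 of 9 clusters. Tnfaip2 was higher in 4 of the 8 clusters where a ratio could be given, and in 3 without shared barcodes. When control cells were weighted to the cluster shares of the knockout library, the log2 ratio was 0.65 for Tnfaip3, 0.62 for Nfkbiz, 0.52 for Birc3 and 0.44 for Icam1, but -0.06 for Nfkb2, -0.22 for Tnfaip2 and -0.27 for Tnip1. The median over the 10 genes was then 0.26, and over all measured genes 0.00071. With this weighting 2 of the 10 genes, Tnfaip3 and Nfkbiz, were 1.5-fold or more higher, and the share of all measured genes was not counted. Birc3 went from 1.02 to 0.52, below that size, Nfkb1 from 0.52 to 0.23 and Relb from 0.44 to 0.27. The weighting rests on 42 control cells for cluster 8.

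**Figure D3:**
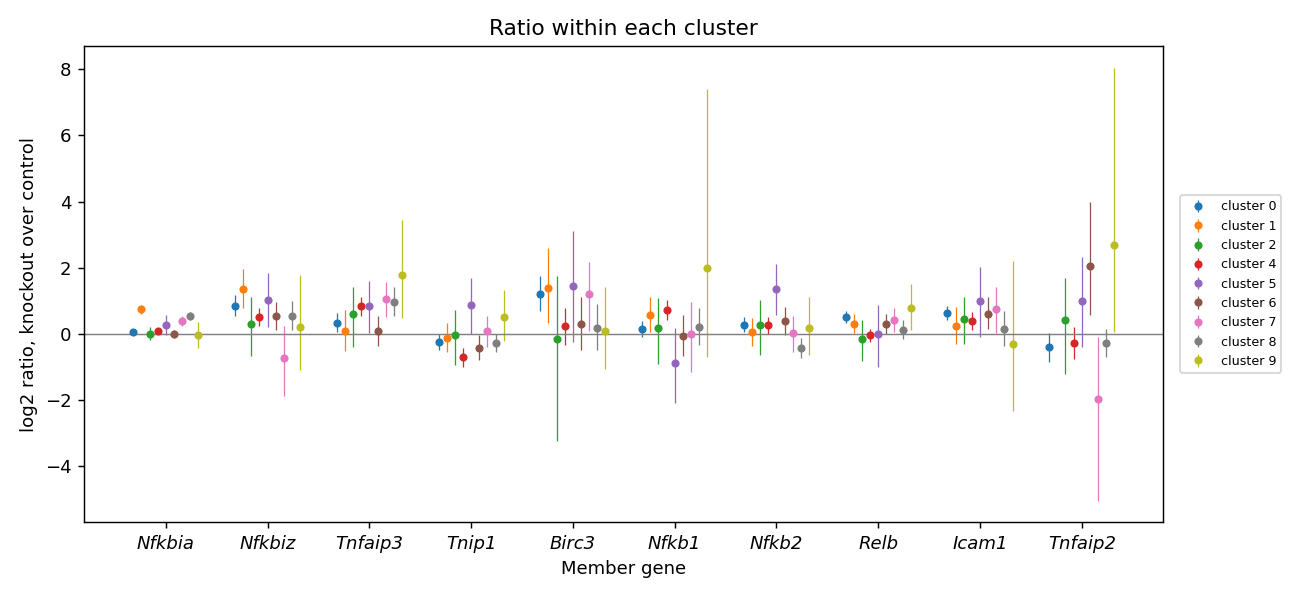
Log2 ratio, knockout over control, of each gene within the 9 clusters that had 20 or more cells of each library, with exact 95% counting intervals. Tnfaip3 in cluster 8 sits at 0.96 and Tnip1 in cluster 4 at -0.70, and Tnfaip2 in cluster 1, with no UMI in knockout cells, is not drawn.

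Over single cells the genes co-varied weakly. Correlations are Pearson's r of log-scaled counts over the cells of 1 library, which share that library and whose counts are sparse. The median r over the 45 pairs was 0.045 over 2629 control and 0.068 over 1481 knockout cells, against 0.0071 and 0.0051 for a pair of 1 of these genes and any other measured gene. Such low values are no finding by themselves. The highest pair in either library was Tnfaip3 with Nfkbia, the feedback inhibitors whose promoters are printed above, at 0.30 in control and 0.27 in knockout cells. It was 0.31 and 0.28 with each cluster's mean removed, 0.30 and 0.25 without shared barcodes, and 0.11 and 0.15 in cells thinned to 5000 UMIs. Nfkbiz varied with both, at 0.19 and 0.18 with Nfkbia and 0.15 and 0.20 with Tnfaip3.

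Relb, Nfkb2, Tnip1 and Birc3 also varied with each other, but not as a group apart from Tnfaip3. Relb with Nfkb2, the subunits of the slower branch, had an r of 0.22 in control and 0.15 in knockout cells. Birc3 with Tnip1 had 0.14 and 0.18, Nfkb2 with Tnip1 0.14 and 0.14, and Relb with Tnip1 0.12 and 0.12. Birc3 with Relb had 0.088 and 0.10, and Birc3 with Nfkb2 0.075 and 0.089. Tnfaip3 with Tnip1 stood at 0.045 in control but 0.17 in knockout cells, and Tnfaip3 with Birc3 at 0.047 and 0.14. In thinned cells these pairs were weaker, at 0.11 and 0.059 for Relb with Nfkb2 and 0.025 and 0.095 for Birc3 with Tnip1. Nfkb2 with Tnip1 then stood at 0.053 in control but 0.0048 in knockout cells, and Relb with Tnip1 at 0.050 and 0.0090. The highest pair of Icam1 had an r of 0.04 in control cells and, with Nfkbia, 0.10 in knockout cells. That of Tnfaip2 had 0.06 in control cells, with Birc3, and 0.09 in knockout cells, with Tnfaip3. In all, 9 pairs in control and 11 in knockout cells reached 0.1, and 2 in each library did in thinned cells. How often other pairs of genes reach 0.1 was not counted. Without shared barcodes the medians were 0.048 and 0.054.

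**Figure D4:**
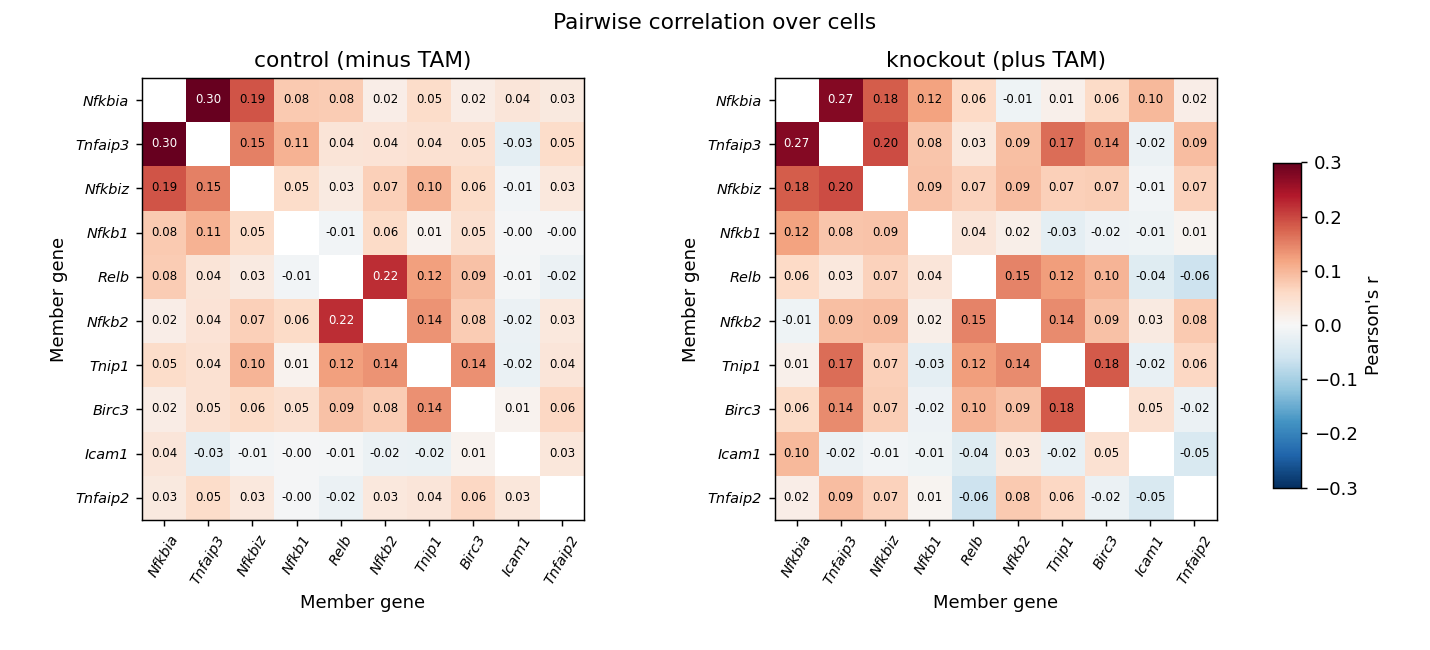
Pearson's r over cells for each pair of genes in the control (left) and knockout (right) library, with the value printed in each square. Nfkbia, Tnfaip3 and Nfkbiz form the darkest block (0.15 to 0.30), Relb with Nfkb2 stands at 0.22 and 0.15, and the rows of Icam1 and Tnfaip2 are pale.

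In thinned cells, where depth is equal, levels were also compared between cells with and without a Tnfaip3 UMI or a Relb UMI. Nfkbia stood at 721 CPM (675 to 770.4) in the 247 control cells with a Tnfaip3 UMI and 518 CPM (504 to 531) in the 2240 without, a ratio of 1.39 (1.30 to 1.496). In knockout cells it stood at 843 CPM (791 to 898) in 228 cells with and 597 CPM (577 to 617) in 1159 cells without, a ratio of 1.41 (1.31 to 1.52). Nfkbiz was higher in cells with a Tnfaip3 UMI as well, by a ratio of 1.67 (1.18 to 2.31) and 2.11 (1.60 to 2.75). Nfkb2 hardly differed by Tnfaip3 (0.95 and 1.03, intervals including 1), but stood higher in cells with a Relb UMI, by 1.72 (1.39 to 2.12) in control cells and 1.24 (0.995 to 1.54) in knockout cells. The sets of genes were not kept apart by these splits. Tnfaip3 was higher in control cells with a Relb UMI, by a ratio of 1.73 (1.34 to 2.22), against 0.996 (0.77 to 1.28) in knockout cells, and Relb was higher in control cells with a Tnfaip3 UMI, by 1.38 (1.11 to 1.71), against 1.08 (0.86 to 1.34). In knockout cells with a Tnfaip3 UMI, Tnip1 was higher by 1.58 (1.201 to 2.06) and Birc3 by 1.81 (1.16 to 2.76). Without shared barcodes the ratios for Nfkbia by Tnfaip3 were 1.41 and 1.32, and those for Nfkb2 by Relb 1.76 and 1.33.

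The genes whose levels followed the mean of the 10 most closely, by the lower r of the 2 libraries among 7107 genes with 10 CPM or more in both, were Tnf, Cxcl1 and Cxcl16. Tnf, the ligand that activates the pathway, had an r of 0.33 in control and 0.39 in knockout cells (0.33 and 0.37 without shared barcodes). Cxcl1, a neutrophil chemokine, had 0.36 and 0.32, and Cxcl16, a membrane-bound chemokine, 0.31 and 0.35. Then came Cldn4, Plk2, Junb, Klf6, Edn1, Nipal1 and Plaur, whose lower r lay between 0.24 and 0.27. The 99th percentile of all measured genes was 0.17 in control and 0.20 in knockout cells. Tnf stood at 110 CPM (interval 107 to 112) against 171 CPM (167 to 175), and at 204 CPM or more in knockout cells of clusters 6 and 0. The mean of the 10 also varied with the log of total UMIs (r of 0.23 and 0.11), with the immediate early list (0.30 and 0.27) and with a list of fetal-like and YAP genes (0.30 and 0.31), with a squamous list (0.17 and 0.23) and an epithelial list (0.20 and 0.26), and with the interferon list (0.08 and 0.13). Such lists also moved between the libraries. Of 13 squamous genes 7 were measured, and 6 of these were higher in the knockout library by 1.5-fold or more (median log2 ratio 1.61). Yet the squamous list summed to 1015 CPM in control and 1078 CPM in knockout cells. Of 14 colonocyte genes 7 were measured and 6 were higher (2.01), and 16 of 18 S phase genes were lower (-1.10). A gene can be measured through 1 library alone. Most of the 7 colonocyte genes, and some of the 7 squamous genes, reached 10 CPM only in the knockout library. Their counts and medians therefore support nothing by themselves. The mean of the 10 hardly varied with the S phase list (0.04 and -0.03) or, in knockout cells, the colonocyte list (0.02). The part of these in the co-variation and in the levels was not tested.

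Of 137 other pathway genes found in the files, 91 were measured. In the knockout library 18 of these were higher by 1.5-fold or more, 4 were lower by as much and 69 were neither, with a median log2 ratio of 0.23. The shares over all measured genes are the 8.06% and 10.7% above. Without shared barcodes 14 were higher and 4 lower, and the shares over all measured genes were not counted there. Of the genes counted as higher, Ikbke, Nfkbie, Traf3, Ccl5 and Csf1 reached 10 CPM only in the knockout library, and of the lower ones Tifa, Tgm2 and Pigr only in the control library. Such genes entered through the library where they were high, as Birc3 did among the 10, so these counts are descriptions and support nothing by themselves. Of 4 measured ligands, Tnf was 1.5-fold or more higher and Tnfsf9 stood at 46.9 against 69.4 CPM. None of 14 receptors and adaptors was past 1.5-fold, and their median was -0.0088. The farthest from 0 were Myd88, the adaptor of Toll-like and IL-1 receptors, at 21.3 against 14.6 CPM, the kinase gene Ripk2 at 8.26 against 11.9 CPM, the IL-1 receptor antagonist gene Il1rn at 69.4 against 97.4 CPM and Tnfrsf12a, the TWEAK receptor gene, at 472 against 637 CPM.

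Of 15 kinases and activators only Ikbke, which encodes IKK-epsilon, was higher, at 7.87 against 14.0 CPM. Tbk1 stood at 15.8 against 21.9 CPM, Malt1 at 9.42 against 12.2 CPM and Ikbkb at 39.6 against 51.2 CPM. Of 5 other subunit and IkB genes, 2 were higher, Nfkbie (IkB-epsilon) at 4.26 against 11.3 CPM and Bcl3, an atypical IkB, at 36.0 against 62.7 CPM, with Rel at 10.4 against 14.2 CPM and Nfkbib at 68.2 against 86.2 CPM. Of 15 other negative regulators 3 were higher, namely Tnip3 (ABIN-3) at 14.8 against 32.9 CPM, Zc3h12a, which encodes the RNase Regnase-1, at 16.2 against 31.0 CPM and Traf3 at 9.68 against 14.6 CPM. Birc2 stood at 9.65 against 13.6 CPM. For Tnip3 the shared barcodes mattered, as without them it stood at 13.7 against 19.2 CPM.

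Other targets went both ways, with 11 of 38 higher and 4 lower. The chemokine genes Ccl5 (7.91 against 74.9 CPM), Cxcl5 (25.7 against 101 CPM), Ccl2 (15.4 against 57.6 CPM) and Cxcl10 (20.8 against 58.0 CPM) were among the higher ones. For Ccl5, without shared barcodes, the values were 5.64 against 30.5 CPM. Pigr, the antibody transport receptor, was lower at 12.6 against 2.54 CPM. The other lower ones, named after their values were seen, were Tgm2 (12.4 against 4.98 CPM), the cyclin gene Ccnd1 (555 against 284 CPM) and Tifa (14.8 against 9.05 CPM). Of 16 measured interferon response genes 7 were higher and 1 lower, with a median log2 ratio of 0.49, and of 20 immediate early genes 3 were higher and 0 lower, with a median of 0.37.

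**Figure D5:**
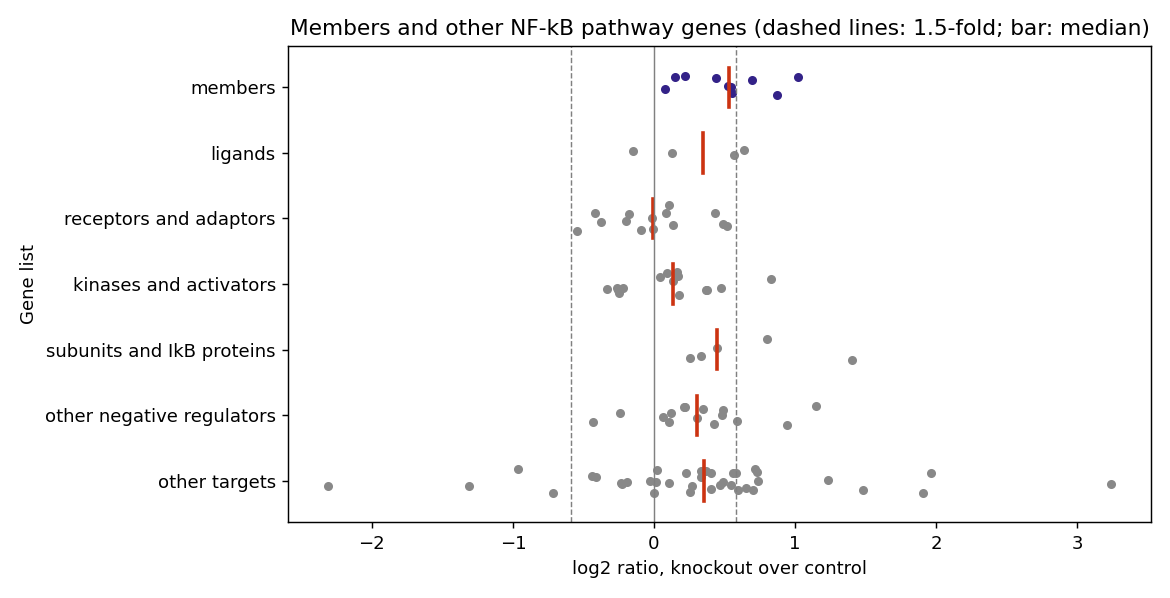
Log2 ratio, knockout over control, of the 10 genes (dark blue) and of the measured pathway genes by role (grey), with the median of each list as a red bar and 1.5-fold as dashed lines. The 10 genes lie between 0.08 and 1.02, receptors and adaptors centre near 0, and other targets spread from -2.31 to 3.24.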

How the data were processed

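Gene levels were measured by 10x Chromium 3' single-cell RNA-seq with version 2 chemistry, per the labels' protocols, in 1 control and 1 knockout library. The deposited values are whole UMI counts per gene and barcode, not normalized, which the authors computed, per the file headers, with Cell Ranger 3.1.0, on mm10 per the submitters' processing notes. The annotation release and strand setting are not given in the sources used here. The day in the names of the deposited tables is not used here. Kept barcodes had 1000 or more genes, 2000 or more UMIs and a mitochondrial share of 20% or less. The automatic doublet threshold of Scrublet marked only 1 and 4 cells, so the 58 and 18 highest scores were removed instead, leaving 2629 of 3618 control and 1481 of 2078 knockout barcodes. Counts were summed per library and scaled to CPM. Genes at 10 CPM or more in at least 1 library were called measured, and 1.5-fold or more was a size threshold.

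Poisson (CPM), conditional binomial (ratios) and Clopper-Pearson (shares) intervals are exact. Clustering used 2000 variable genes without the 10 genes and the pathway genes, 30 components, 15 neighbours and Leiden resolution 0.8, without integration (scanpy 1.11.5, leidenalg 0.10.2). Correlations used counts scaled to 10000 per cell, log(1 + x). Positions and overlaps come from GENCODE M21, in which 30934 of 31053 gene identifiers were found, and promoters from RefSeq. The genes, lists and rules were chosen with earlier results of these data known. Named are the 10 genes, up to 4 pathway genes per role with the largest absolute log2 ratio, the 10 genes most like their mean, up to 5 leading genes per cluster and N6amt1. Scripts were tested on simulated counts. Alternatives were other cell filters, no doublet removal, no shared barcodes, edgeR 4.0.16 TMM factors and DESeq2-type size factors (scaling only), per-cell means, cluster weighting, other thresholds and minimum CPM, and other cluster settings. Leaving out smaller barcode copies, leaving out cluster 5 and correcting for transcript length were chosen after seeing the data.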

Additional observations from a re-analysis of the deposited data

How the results depend on the processing

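No paired analysis was possible because each group is 1 library and the labels carry no replicate numbers. With 1 library a group there is no spread between replicates, and all limits given are of counting. Over 12 alternatives the log2 ratio ranged from 0.65 to 1.02 for Tnfaip3, 0.62 to 0.71 for Nfkbiz, 0.52 to 1.21 for Birc3, 0.44 to 0.63 for Icam1, 0.27 to 0.50 for Relb, 0.23 to 0.56 for Nfkb1 and 0.18 to 0.30 for Nfkbia. It changed sign for Nfkb2 (-0.06 to 0.70), Tnfaip2 (-0.22 to 0.27) and Tnip1 (-0.27 to 0.19). The median over the 10 genes lay between 0.49 and 0.54 except when control cells were weighted to the knockout library's cluster shares (0.26) or at a minimum of 50 CPM (0.33, with 2 genes left and 0 of them past 1.5-fold). At a 2-fold threshold 1 of the 10 was higher, namely Birc3, which was measured only through the knockout library. For this count and those that follow, the shares over all measured genes were not counted. Of the pathway genes 7 were higher and 2 lower at 2-fold, 11 higher and 1 lower of 41 at 50 CPM, and 40 higher and 7 lower of 134 with no minimum, where the number of genes tested differs by construction. The cluster with the highest summed level reached 1102 CPM at resolution 1.2, 1095 CPM with all variable genes and 1092 CPM without shared barcodes, and held 13, 8 and 8 of the 191 cells of cluster 6. At resolution 0.4 it reached 1075 CPM and held 111 of them. The cause was not tested. Shares of cells with a UMI rise with depth: for Tnfaip3 they were 3.99% and 8.44% at 2000 UMIs and 18.1% and 28.6% at 10000 UMIs.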
